A study of Arabidopsis thaliana with 9 samples.

Results

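The transcription units described here are 930 Arabidopsis thaliana transcripts whose array names carry genome coordinates. Their systematic names begin with AT, a chromosome number and TU, and then give a chromosome, a start and an end. Every name that followed this pattern on non-control probes of all 9 arrays was taken, with no measured value in the choice. The 930 units had 2786 of the 15013 probes and made up 930 of the 5154 transcript names on the array. Of the other names, 3569 were transcription units named without coordinates and 173 were miRNA precursors. Most units (926) had 3 probes, and the remaining 4 had 2. A unit was represented by its brightest probe, the one with the highest mean over the 9 arrays.

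Long intergenic noncoding RNAs are transcripts from between annotated protein-coding genes that are not known to encode proteins, and in plants many are made by RNA polymerase II and carry a cap and a poly(A) tail. SERRATE, which has a zinc finger, acts beside DICER-LIKE 1 and HYPONASTIC LEAVES 1 when miRNA precursors are processed, and it also affects splicing. CBP20 and CBP80 form the nuclear cap-binding complex, which binds the cap of new RNA polymerase II transcripts and also takes part in splicing and in miRNA processing. A TU name marks a stretch of the genome from which a transcript was inferred. It gives no function, and no function is known here for any of the 930 units.

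Whole seedlings aged 2 weeks had grown under long days on solid medium, and their total RNA was measured on 1-colour arrays with 3 biological replicates in each of 3 genotypes. The genotypes were the Columbia wild type (Col-0, written WT), the single mutant se-2, and the double mutant cbp20 cbp80, mutated in both subunits of the cap-binding complex. No group is named as carrying both kinds of mutation. The study's title asks which long intergenic noncoding RNAs SERRATE, CBP20 and CBP80 regulate. Per the file headers the 6 mutant arrays shared 1 slide and 1 scan, whereas the 3 WT arrays lay on 3 other slides, so slide and genotype cannot be told apart when a mutant is set against WT. The WT arrays also varied more: the median SD of a tested unit (log2, n = 3) was 0.736 for WT arrays but 0.146 for se-2 and 0.210 for cbp20 cbp80. Neither SE, CBP20 nor CBP80 was among the probes analysed here, and the marker lists for leaf (0 of 8), root (0 of 6) and flower (0 of 5) had none either, whereas 2 of 4 seed markers (EM1 and EM6) were present and were not used here. The genotype and tissue labels were therefore not checked against those genes.

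What the names say of position was read first. The units lay on all 5 chromosomes, with 255 on chromosome 1, 122 on chromosome 2, 179 on chromosome 3, 146 on chromosome 4 and 228 on chromosome 5. The unit numbers followed the start positions on every chromosome. The median gap between neighbouring starts was 67.9 kb on chromosome 4 and 90.7 kb on chromosome 2, the shortest and longest of the 5. The genome build behind these coordinates is not given in the sources used here, so starts are quoted as named and were joined to no annotation.

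The ends of the names were largely unreadable, because each of the 930 names stops after 31 characters and closes with 3 dots. The end coordinate was complete for 4 units, lacked its last digit for 20, its last 3 digits for 362 and 5 digits for 544. The 4 complete names gave lengths of 320 bases (AT1TU000010), 331 bases (AT1TU000310), 342 bases (AT2TU000200) and 350 bases (AT2TU000260). Counting the 20 that lack 1 digit, 24 units had a length known to within 10 bases, and all 24 lay between 297 and 404 bases. These 24 are the units nearest the chromosome ends with low coordinates and are no random sample of the rest. Each of the 386 names with 3 or fewer digits missing allowed a length in that same range, and for the 544 others the upper limit that the name allows ran from 353 to 99607 bases. The strand was lost from the names in the same way.

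**Figure D1:**
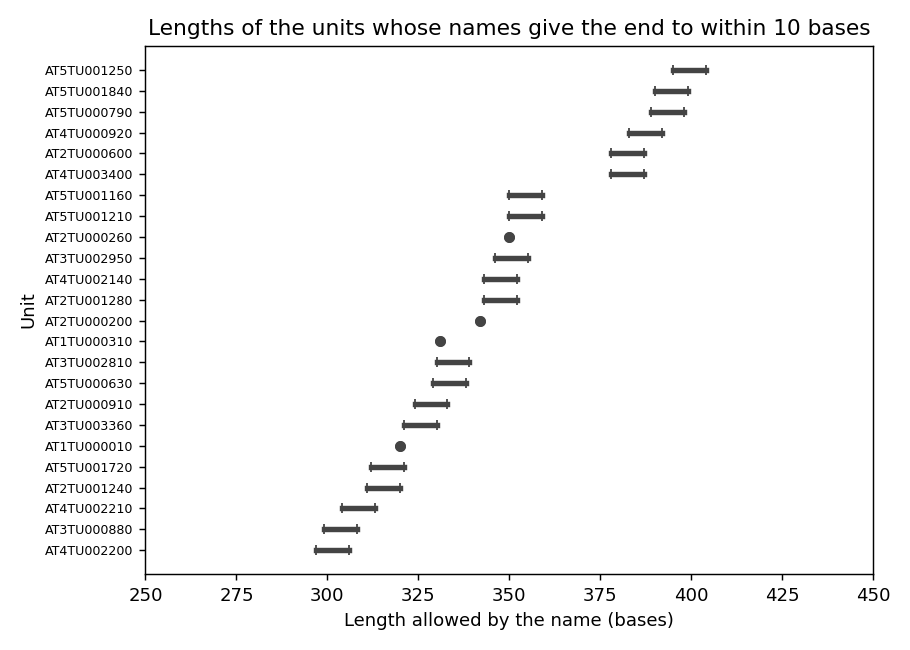
Lengths in bases (horizontal axis) allowed by the names of the 24 units, 1 per line, whose end is complete (points, 4 units) or lacks its last digit (bars, 20 units). All 24 lie between 297 and 404 bases.

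Of these 24 units of known length, 12 were well above background on none of the 9 arrays and 5 entered the tests. AT2TU001240 (chromosome 2, start 360720, 311 to 320 bases), AT2TU000200 and AT2TU000600 (378 to 387 bases) were well above background on all 9 arrays. AT4TU002210 (chromosome 4, start 605137, 304 to 313 bases) was so on the 6 mutant arrays and on no WT array. Its neighbour AT4TU002200, which starts 1543 bases earlier, was above that mark on none.

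Most of the 930 units gave little signal in seedlings. Detection was read from the scanner software's call that a spot is well above its background. By that call 71 units (7.63%) were detected on all 9 arrays, 403 (43.3%) on none, and 456 (49.0%) on 1 to 8 arrays. For units named without coordinates those shares were 11.6%, 42.6% and 45.8%. Among the 214 units with coordinates detected on exactly 1 array, 79 were detected on WT replicate 2 alone. The detected share on WT replicates 1 to 3 was 10.2%, 29.6% and 24.6%. For se-2 it was 26.2%, 25.7% and 30.1%, and for cbp20 cbp80 it was 23.5%, 25.1% and 19.5%. WT replicate 1 was the lowest and se-2 replicate 3 the highest, and the 3 genotypes overlapped. On each of the 9 arrays the share was lower than among transcription units named without coordinates, which ran from 15.1% on WT replicate 1 to 32.9% on WT replicate 2. That difference between classes was not tested, and the classes share arrays but differ in their probe sets. The 2786 probes of the units with coordinates came from 1 probe set that held no other probe.

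**Figure D2:**
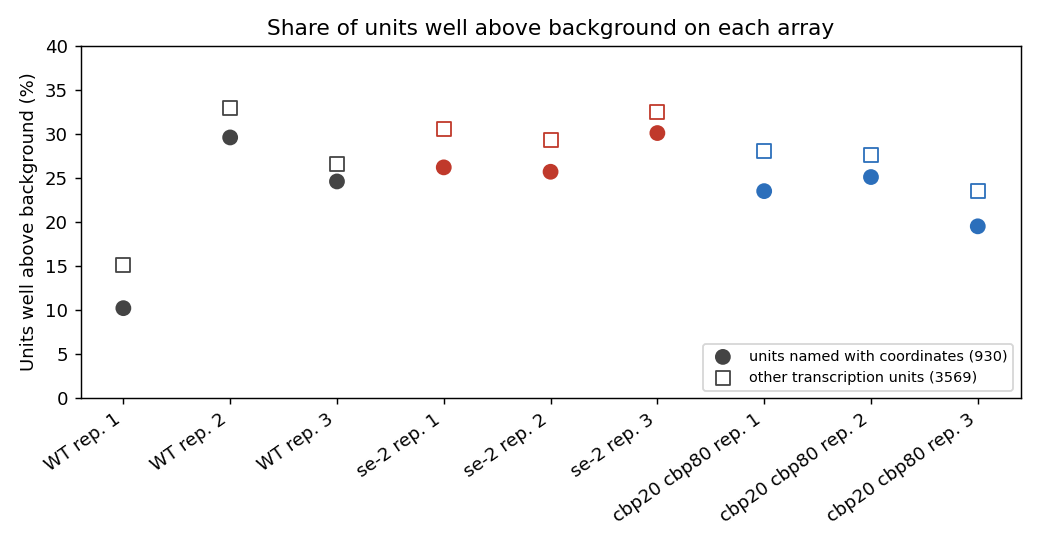
Share of units (percent, vertical axis) whose brightest probe was well above background on each of the 9 arrays; filled circles are the 930 units named with coordinates and open squares the 3569 units named without. The circles run from 10.2% on WT replicate 1 to 30.1% on se-2 replicate 3 and lie below the square on every array.

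When detection was asked on all 3 arrays of a genotype, 79 units (8.49%) passed in WT. More passed in each mutant, 201 (21.6%) in se-2 and 151 (16.2%) in cbp20 cbp80. The same order was seen among units named without coordinates (13.1%, 25.4% and 20.3%) and among miRNA precursors (37.6%, 72.8% and 66.5%). The WT count of 79 rested on WT replicate 1, since 134 units passed on WT replicates 2 and 3 alone. Without that array 92 units, not 71, were detected on all others. In all, 211 units (22.7%) passed in at least 1 genotype and were tested, against 948 of the 3569 units named without coordinates (26.6%). Of the 211, 71 passed in all 3 genotypes, 75 in both mutants only, 52 in se-2 only, 5 in cbp20 cbp80 only, 5 in WT only and 3 in WT and se-2. The remaining 719 of the 930 units passed in none and are not described further by level. The tested units were spread over the chromosomes, from 19.7% of the units of chromosome 5 to 27.4% of those of chromosome 4.

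Levels are given as log2 of the processed signal minus that array's 75th percentile over a reference set of 1835 probes, those detected on each of the 9 arrays. A level of 0 is therefore a bright spot by the standard of that set, and levels of different probes are not compared. The 71 units detected on every array had median levels of -3.44, -3.33 and -3.32 in WT, -3.35, -3.35 and -3.32 in se-2, and -2.94, -2.80 and -2.75 in cbp20 cbp80. The 3 cbp20 cbp80 arrays lay above the other 6. The 413 units named without coordinates and detected on all 9 arrays had medians of -2.88, -2.79 and -2.71 in cbp20 cbp80. In se-2 theirs were -3.16, -3.10 and -3.15, and in WT -3.13, -3.03 and -2.86. There too cbp20 cbp80 lay above se-2, but WT replicate 3 lay above cbp20 cbp80 replicate 1. Before scaling, the median signals of the 71 units were 16.6 to 53.0, with single units between 4.32 and 4680. The lowest level that an array still called well above background was -5.62, -6.39 and -5.98 in WT, -6.86, -6.80 and -6.88 in se-2, and -6.26, -6.16 and -5.79 in cbp20 cbp80. Those limits were deepest in se-2, so the counts per genotype do not compare the genotypes at equal sensitivity.

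AT4TU017870 (chromosome 4, start 5351200), named here after its values were seen, had levels of 3.95, 3.67 and 2.13 in WT, 1.60, 1.58 and 1.73 in se-2, and 2.22, 2.24 and 2.19 in cbp20 cbp80. Every se-2 array lay below every WT and cbp20 cbp80 array, and WT replicate 3 was the lowest WT array, within 0.11 of the cbp20 cbp80 arrays. AT3TU041050 (chromosome 3, start 11776550), chosen likewise, showed how far WT arrays could part, with 2.18, 3.09 and -0.74 in WT and -1.04 to -0.51 on the 6 mutant arrays. Its difference of -2.32 in se-2 did not pass the test (limma, Benjamini-Hochberg adjusted p = 0.0531).

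Against WT, 23 of the 211 tested units were higher in se-2, 32 were lower and 156 did not pass the test (limma, a linear model fitted to every probe with moderated errors, 9 arrays, Benjamini-Hochberg adjusted p under 0.05 over all 3103 tested probes). That is 26.1% called, beside 37.7% of the 1715 tested transcripts of the array, 18.1% of which were higher and 19.5% lower. The median log2 difference of the units was 0.22, against 0.01 over all transcripts. In cbp20 cbp80, 57 units were higher, 18 lower and 136 not called, so 35.5% were called beside 38.4% of all transcripts (24.4% higher, 14.0% lower). The median there was 0.52, against 0.25 over all transcripts. Both comparisons use the same 3 WT arrays and are not independent. The called shares of the units were below or near those of all transcripts. The sign of the median differed with detection. The 71 units detected on all 9 arrays had median differences of -0.29 in se-2 (7 higher, 18 lower) and -0.09 in cbp20 cbp80 (14 higher, 6 lower). The 140 other tested units, most of which passed the detection filter in mutants only, had medians of 0.39 (16 higher, 14 lower) and 0.76 (43 higher, 12 lower). For units that passed in mutants only, the filter itself favours higher mutant values. Their medians and calls, and the totals of 23 and 57 higher units that include them, are not independent of it. For units that passed in WT only, the filter in turn favours lower mutant values.

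These calls treat the arrays as independent. With the slide as a random block, 1 of the 211 units was called higher in se-2, beside 6.82% of all transcripts (5.54% higher, 1.28% lower). In cbp20 cbp80 1 was called higher as well, beside 5.6% (4.96% higher, 0.641% lower), and it was the same unit, AT5TU056720. At an unadjusted p under 0.05 that fit left 7 units in se-2 (2 higher, 5 lower) and 10 in cbp20 cbp80 (8 higher, 2 lower). Those are 3.32% and 4.74% of the 211 units, beside 14.7% and 14.1% of the 1715 transcripts. The counts also moved with WT replicate 3, whose file header gives another protocol name than those of the other arrays. Without that array 89 units were called in se-2 (46 higher, 43 lower) and 113 in cbp20 cbp80 (82 higher, 31 lower). Leaving out a mutant array brought the calls of se-2 down to 30, 32 and 34 and those of cbp20 cbp80 to 54, 48 and 37. The part of slide and array in the other calls was not tested beyond these values.

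**Figure D3:**
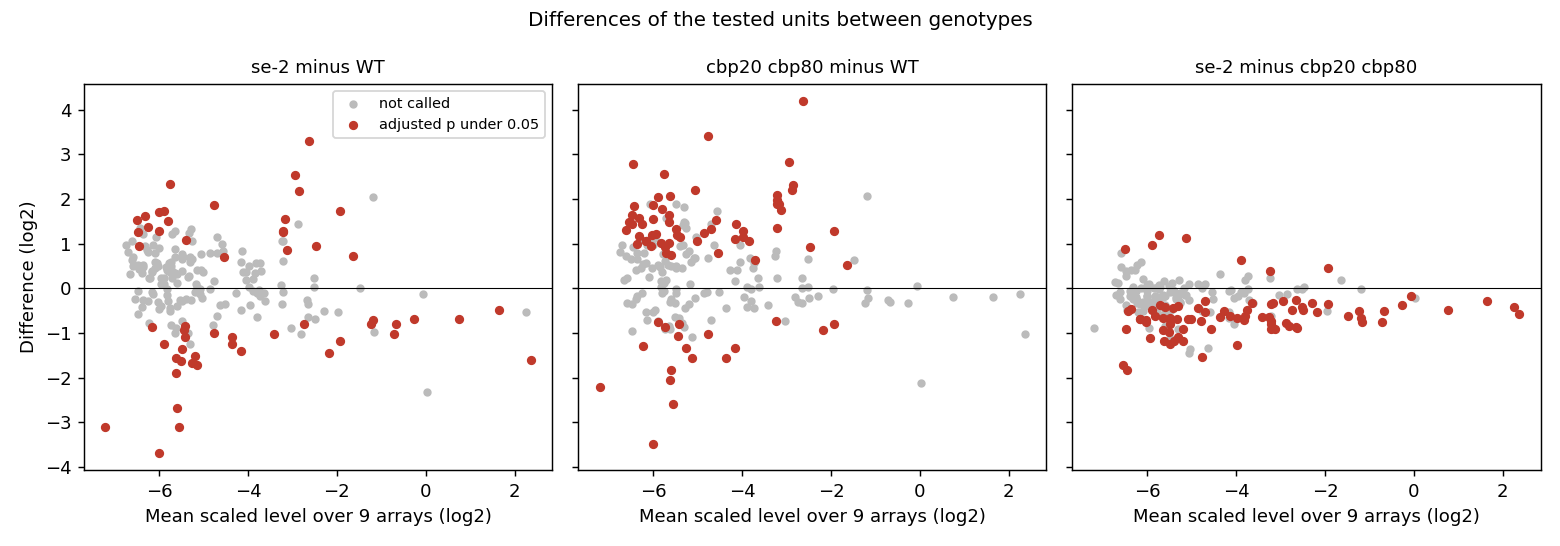
Log2 difference between genotypes (vertical axis) of each of the 211 tested units against its mean level over the 9 arrays (log2, horizontal axis), in 3 panels for se-2 minus WT, cbp20 cbp80 minus WT and se-2 minus cbp20 cbp80. Red points passed an adjusted p under 0.05: 23 higher and 32 lower in the first panel, 57 and 18 in the second, 7 and 78 in the third, where most red points lie within 1 of 0.

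AT5TU056720 (chromosome 5, start 16773899) was the clearest difference from WT. Its levels were -4.18, -4.36 and -4.52 in WT, -2.27, -2.08 and -2.13 in se-2, and -2.03, -2.02 and -2.03 in cbp20 cbp80. All 6 mutant arrays lay above all WT arrays, and the unit was detected on all 9. It was 4.57-fold higher in se-2 (log2 2.19 ± 0.15 SE, n = 3 against 3, limma adjusted p = 1.3e-05) and 5.01-fold higher in cbp20 cbp80 (2.32 ± 0.15, adjusted p = 1.26e-05). The call held with the slide as a random block (adjusted p = 0.0124 and 0.0134). No slide held both WT and mutant arrays, so that fit cannot part slide from genotype. The call also held under each of the 6 other scalings tried. Those were the arrays' medians, the percentile over all probes, quantile normalization, normexp background correction (a model of spot and surround that adds an offset) with the percentile or with quantile normalization, and the authors' deposited table. Its other probes gave log2 differences of 2.42 and 2.35 in se-2 and of 2.56 and 2.22 in cbp20 cbp80. The mutants did not pass the test against each other (-0.13 ± 0.06, adjusted p = 0.124).

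The other units with the largest rises were dim or variable in WT. A fold is written as "at least" where the dimmer genotype was not well above background on all of its arrays, with each such array taken at the higher of its lowest detected level and its own value. AT4TU005600 (chromosome 4, start 1560530, at most 470 bases) had levels of -4.81, -4.03 and -6.57 in WT, -1.67, -1.57 and -2.24 in se-2, and -1.44, -0.65 and -0.74 in cbp20 cbp80. All mutant arrays lay above all WT arrays, of which 2 detected the unit. Its rise was at least 8.67-fold in se-2 (log2 3.31 ± 0.59 SE, limma adjusted p = 0.00265) and at least 16.0-fold in cbp20 cbp80 (4.19 ± 0.59, adjusted p = 0.000843). Without WT replicate 3 the log2 differences were 2.6 and 3.48 and still called. They were also called under all 6 other scalings, but not with the slide as a block (adjusted p = 0.359 and 0.242). Only 1 of its 3 probes passed the detection filter and was tested.

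AT5TU047320 (chromosome 5, start 13870369) rested more on single WT arrays. Its levels were -2.93, -4.22 and -7.02 in WT, -2.10, -2.29 and -2.19 in se-2, and -1.88, -1.88 and -1.94 in cbp20 cbp80. The mutant arrays lay above all WT arrays, and 2 WT arrays detected it. The log2 differences were 2.53 ± 0.85 in se-2 (limma adjusted p = 0.0446, at least 4.55-fold) and 2.82 ± 0.85 in cbp20 cbp80 (adjusted p = 0.0295, at least 5.57-fold). Without WT replicate 3 they were 1.38 and 1.68, and without WT replicate 1 they were 3.43 and 3.72. The se-2 call was lost without WT replicate 2 (2.78) or any se-2 array (2.48 to 2.58), and the cbp20 cbp80 call without any cbp20 cbp80 array (2.82 to 2.84). Of the 6 other scalings, 3 called it in se-2 and 4 in cbp20 cbp80, all with the same sign. Its second probe gave smaller differences, 0.88 in se-2 (adjusted p = 0.0181) and 1.24 in cbp20 cbp80 (adjusted p = 0.00402).

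AT5TU014740 (chromosome 5, start 4202199, at most 801 bases) differed among all 3 genotypes. Its levels were -6.49, -7.77 and -5.33 in WT, -4.61, -4.58 and -4.80 in se-2, and -3.10, -3.13 and -3.13 in cbp20 cbp80. The genotypes did not overlap, and the unit was detected on 1 WT array and on all mutant arrays. Against WT its rise was at least 2.17-fold in se-2 (log2 1.87 ± 0.51, limma adjusted p = 0.0198) and at least 6.32-fold in cbp20 cbp80 (3.41 ± 0.51, adjusted p = 0.00123). The values ran from 1.24 without WT replicate 2 to 2.47 without WT replicate 3 in se-2, and from 2.79 to 4.01 in cbp20 cbp80 for the same arrays. The se-2 call was lost without any 1 of the se-2 arrays (1.82 to 1.93), and with the slide as a block the adjusted p was 0.293 in se-2 and 0.0525 in cbp20 cbp80. Under normexp the se-2 difference turned to -0.65. Within the mutants' slide it was 2.92-fold lower in se-2 than in cbp20 cbp80 (-1.54 ± 0.07, adjusted p = 7.19e-05), under every scaling tried.

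A set of 13 units (1.4% of the 930) was detected on all 6 mutant arrays and on no WT array, beside 70 of all 5154 transcripts (1.36%). That choice favours units brighter in the mutants, so the directions and p-values given for them are not independent of it. AT5TU046030 (chromosome 5, start 13439879) had levels of -7.65, -6.72 and -7.76 in WT, -5.06, -5.01 and -5.07 in se-2, and -5.13, -5.0 and -4.35 in cbp20 cbp80. Its rise was at least 1.94-fold in se-2 and at least 2.25-fold in cbp20 cbp80 (limma adjusted p = 0.000605 and 0.00043). AT2TU063330 (chromosome 2, start 18523232) was at least 1.54-fold and 1.85-fold higher (adjusted p = 0.001 and 0.000472), with WT levels of -7.10 to -6.48 and mutant levels of -5.59 to -4.89. AT5TU031240 (chromosome 5, start 8776925) was at least 1.5-fold and 1.86-fold higher (adjusted p = 0.0228 and 0.0116), with WT levels of -8.41 to -6.17 and mutant levels of -5.60 to -4.85. In all 3 units the mutant arrays lay above the WT arrays, and in all 3 the sign turned in both mutants under normexp background correction. Of the AT5TU031240 calls, the one in se-2 was lost without any 1 of the se-2 arrays (1.66 to 1.82), and without WT replicate 2 the log2 differences were 1.1 and 1.41. Its second probe gave 1.07 in se-2, which did not pass (adjusted p = 0.397), and 2.76 in cbp20 cbp80 (adjusted p = 0.0441). With the slide as a block no unit of the 3 passed (adjusted p between 0.323 and 0.455). AT4TU002210, the short unit described above, also belongs to the 13: it was at least 1.59-fold higher in cbp20 cbp80 (log2 1.01, limma adjusted p = 0.00906) and not called in se-2 (0.40, adjusted p = 0.201).

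The reverse, detection on all WT arrays and on no mutant array, was found for 2 units (0.215%), beside 16 of all transcripts (0.31%). This choice in turn favours units brighter in WT. AT4TU028510 (chromosome 4, start 8488009, at most 991 bases) had levels of -3.85, -3.41 and -3.59 in WT, -8.12, -7.25 and -6.52 in se-2, and -6.75, -6.77 and -7.80 in cbp20 cbp80. All mutant arrays lay more than 2 log2 units below all WT arrays. The unit was at least 8.62-fold lower in se-2 (log2 -3.68 ± 0.43, limma adjusted p = 0.000298) and at least 5.47-fold lower in cbp20 cbp80 (-3.49 ± 0.43, adjusted p = 0.000461). The call held under all 6 other scalings and with any 1 array left out, but not with the slide as a block (adjusted p = 0.554 and 0.584) or with array weights per genotype (adjusted p = 0.147 and 0.172). Only 1 of its 3 probes passed the detection filter and was tested. AT1TU064190 (chromosome 1, start 19391274) had levels of -4.89, -6.10 and -5.28 in WT, -8.71, -7.82 and -9.08 in se-2, and -8.41, -6.49 and -8.03 in cbp20 cbp80. Its groups did not overlap, though WT replicate 2 lay within 0.4 of cbp20 cbp80 replicate 2. It was at least 2.69-fold lower in se-2 (adjusted p = 0.00293) and at least 1.57-fold lower in cbp20 cbp80 (adjusted p = 0.0144), the latter lost without cbp20 cbp80 replicate 1 (-1.84) or replicate 3 (-2.03). Neither call passed with the slide as a block (adjusted p = 0.729 and 0.852) or with array weights per genotype (adjusted p = 0.259 and 0.437). Without WT replicate 1, 11 units were detected on the other WT arrays and on no mutant array.

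A further 3 units fell in both mutants from levels at which WT detected them on every array. They passed the detection filter in WT alone, which favours lower mutant values, so their directions and p-values are not independent of it. AT2TU015300 (chromosome 2, start 4871290, at most 710 bases) had levels of -2.88, -4.54 and -3.55 in WT, -7.45, -6.43 and -6.40 in se-2, and -6.38, -6.20 and -6.18 in cbp20 cbp80. The groups stood apart from WT by more than 1.6, and 2 se-2 arrays but no cbp20 cbp80 array detected it. It was at least 7.48-fold lower in se-2 (log2 -3.10 ± 0.43, limma adjusted p = 0.000805) and at least 5.32-fold lower in cbp20 cbp80 (-2.59 ± 0.43, adjusted p = 0.00213), under all 6 other scalings. Its second probe gave -2.98 and -2.30 (adjusted p = 0.00288 and 0.00995). AT5TU036640 (chromosome 5, start 10417426) was at least 5.11-fold and 3.41-fold lower (adjusted p = 0.00304 and 0.0176), with WT levels of -4.69 to -3.57 above mutant levels of -7.78 to -5.53. Its cbp20 cbp80 call was lost without WT replicate 1 (-1.57) or cbp20 cbp80 replicate 1 (-1.61). AT3TU074620 (chromosome 3, start 21481840) was at least 3.72-fold and 3.06-fold lower (adjusted p = 0.00712 and 0.00501), with WT levels of -4.81 to -3.81 and mutant levels of -7.13 to -5.82. With the slide as a block none of the 3 passed (adjusted p between 0.397 and 0.860), and none did with array weights per genotype (adjusted p between 0.08 and 0.516).

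**Figure D4:**
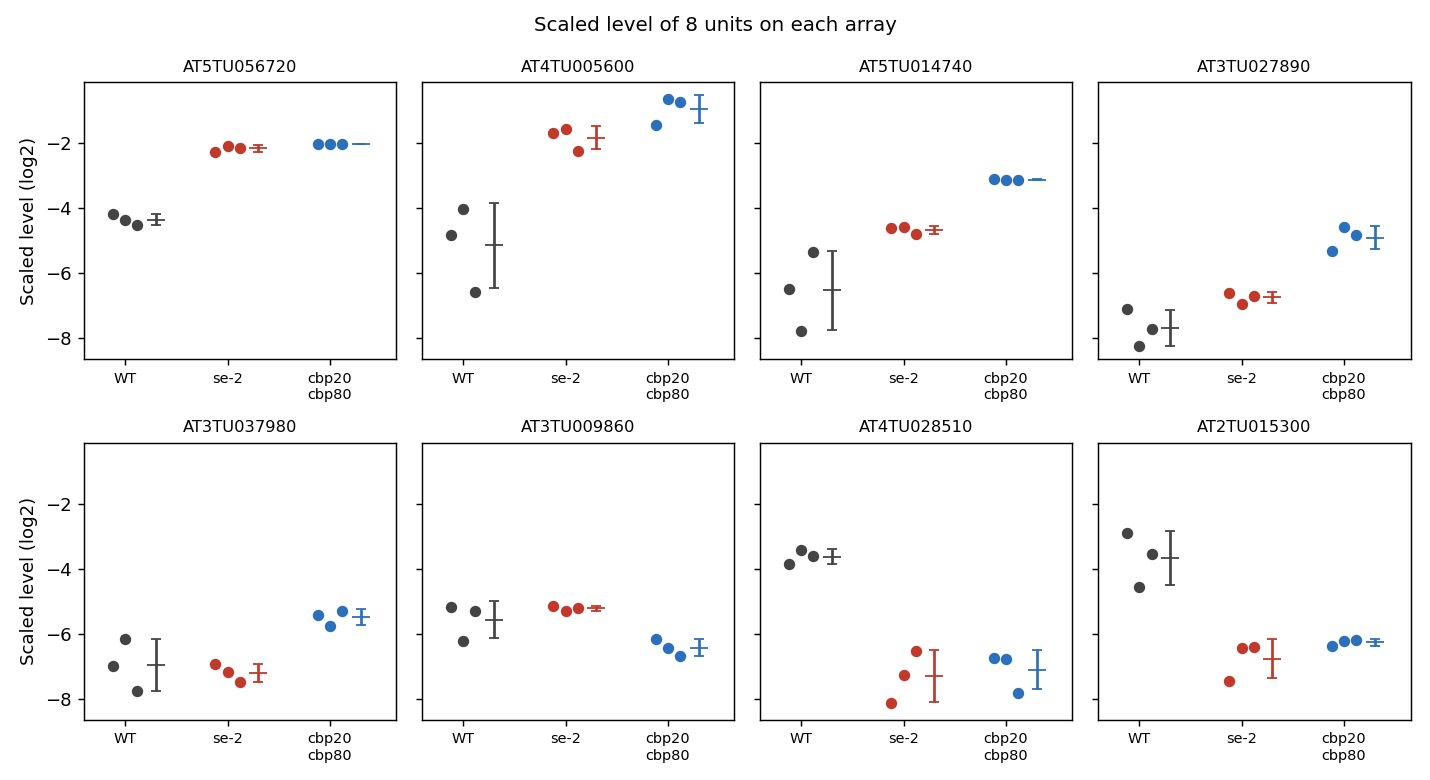
Scaled level (log2, vertical axis) of 8 units on each array, by genotype (WT grey, se-2 red, cbp20 cbp80 blue); points are single arrays and bars the mean ± SD (n = 3). AT5TU056720 has all mutant arrays between -2.27 and -2.02 above WT at -4.52 to -4.18, AT4TU028510 and AT2TU015300 lie highest in WT, and AT3TU027890 and AT3TU037980 lie highest in cbp20 cbp80.

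The mutants could be compared within their shared slide. Over those 6 arrays 7 of the 211 units were higher in se-2 than in cbp20 cbp80, 78 were lower and 126 did not pass (limma, adjusted p under 0.05). That is 40.3% called, beside 46.9% of all tested transcripts, 11.4% of which were higher and 35.6% lower. The median difference of the units was -0.33, against -0.21 over all transcripts, so most of their shift was shared with the array as a whole. Of the 211 units, 52 passed the detection filter through se-2 alone and 5 through cbp20 cbp80 alone. For these the filter favours higher values in the genotype that passed, so the counts are not independent of it. Of the 78 lower units, 18 stayed called in the same direction under all 6 other scalings, and of the 7 higher units 1 did. With all 9 arrays in 1 fit, where the wider WT spread enters, 1 unit was higher and 5 were lower, beside 5.6% of all transcripts (2.86% higher, 2.74% lower). Those 6 were AT3TU009860, AT3TU027890, AT3TU037980, AT4TU017650 and, named after their values were seen, AT2TU034770 (-0.76 ± 0.18, adjusted p = 0.048) and AT5TU048000 (-1.24 ± 0.24, adjusted p = 0.0241). AT5TU014740 did not pass in that fit (adjusted p = 0.142).

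AT3TU027890 (chromosome 3, start 7987433, at most 567 bases) was detected on all cbp20 cbp80 arrays and on no other. Its levels were -7.11, -8.24 and -7.71 in WT, -6.60, -6.94 and -6.69 in se-2, and -5.30, -4.58 and -4.82 in cbp20 cbp80. The cbp20 cbp80 arrays lay above all others. The unit was at least 3.47-fold lower in se-2 than in cbp20 cbp80 (log2 -1.84 ± 0.20 SE, limma adjusted p = 0.00136), under every scaling tried, and at least 2.14-fold higher in cbp20 cbp80 than in WT (2.79 ± 0.31, adjusted p = 0.000236, 0.254 with the slide as a block). Though detected in neither, AT3TU027890 was also called higher in se-2 than in WT (0.95 ± 0.31, limma adjusted p = 0.0379, 0.794 with the slide as a block). AT3TU037980 (chromosome 3, start 10899540) was likewise detected on all cbp20 cbp80 arrays and on no other, with -6.97, -6.16 and -7.75 in WT, -6.92, -7.18 and -7.47 in se-2, and -5.40, -5.75 and -5.28 in cbp20 cbp80. It was not called in se-2 against WT (-0.23, adjusted p = 0.665). It was at least 2.59-fold lower in se-2 than in cbp20 cbp80 (-1.71 ± 0.19, adjusted p = 0.00132), again under every scaling. Against WT it was at least 1.36-fold higher in cbp20 cbp80 (adjusted p = 0.0144), a call lost without cbp20 cbp80 replicate 3 (1.38). Under normexp the cbp20 cbp80 differences of both units from WT turned negative, at -0.13 and -0.36. They were the 2 units (0.215% of the 930) detected on all cbp20 cbp80 arrays and no se-2 array, beside 3 of all transcripts (0.0582%). Both passed the detection filter through cbp20 cbp80 alone, which favours higher values there. The directions and p-values of their cbp20 cbp80 differences are therefore not independent of it.

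In the other direction, 13 units (1.4%) were detected on all se-2 arrays and on no cbp20 cbp80 array, beside 76 of all transcripts (1.47%), and the detection limit was lower on the se-2 arrays. AT3TU009860 (chromosome 3, start 2849829, 172 to 1171 bases) was the largest called difference, with -5.17, -6.22 and -5.29 in WT, -5.14, -5.30 and -5.20 in se-2, and -6.15, -6.43 and -6.67 in cbp20 cbp80. The mutants did not overlap, whereas WT overlapped both. The excess in se-2 was at least 1.76-fold (log2 1.20 ± 0.14, limma adjusted p = 0.00165), and its second probe gave 1.67 (adjusted p = 0.0195). AT1TU082500 (chromosome 1, start 24721320), AT4TU044930 (chromosome 4, start 13152726) and AT5TU049740 (chromosome 5, start 14759175) exceeded cbp20 cbp80 by at least 1.93-fold, 1.5-fold and 1.3-fold in se-2 (adjusted p = 0.00697, 0.0119 and 0.0499). The mutants' arrays did not overlap in any of these 3. AT1TU082500 was detected on 2 cbp20 cbp80 arrays and is not among the 13 units. The AT5TU049740 call was lost without any 1 mutant array (0.60 to 1.03). All 4 differences turned negative under normexp background correction. These 4 units passed the detection filter through se-2 alone, which favours higher se-2 values. Their directions and p-values are therefore not independent of it. The higher unit that held under every scaling was AT4TU039550, named after its values were seen, with se-2 levels of -1.20, -1.24 and -1.14, cbp20 cbp80 levels of -1.61, -1.67 and -1.68, and WT levels of -2.39, -2.83 and -3.57. It was 0.46 ± 0.05 higher in se-2 on the log2 scale (adjusted p = 0.00117), and both mutants lay above WT.

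Probes of the same unit did not always move together. Of the 215 units with any tested probe, 173 had 1, 31 had 2 and 11 had 3, and for 42 units the brightest and the next brightest probe were both tested. Their differences had the same sign in 30 of 42 units in se-2 against WT, in 25 of 42 in cbp20 cbp80 against WT, and in 32 of 42 between the mutants. Where the brightest probe was called, the second was called in the same direction in 8 of 16, 8 of 16 and 11 of 20 units. The second had the opposite sign, called or not, in 2, 5 and 6 of them. Across these 42 units Pearson's r between the probes was 0.67, 0.59 and 0.32, a description in which the probes share arrays. Of the units described above, AT4TU005600, AT5TU014740, AT5TU046030, AT2TU063330, AT4TU028510, AT1TU064190, AT5TU036640 and AT3TU074620 had 1 tested probe of 3. So had AT3TU027890, AT3TU037980, AT1TU082500, AT4TU044930 and AT5TU049740, and the differences given for all of these rest on that probe.

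AT4TU017650 (chromosome 4, start 5297885, 116 to 1115 bases) had 2 probes whose calls had opposite signs, the second of them detected on 1 WT array, on all se-2 arrays and on no cbp20 cbp80 array. Its brightest probe read -4.29, -4.06 and -4.88 in WT, -4.49, -4.14 and -4.54 in se-2, and -3.67, -2.89 and -2.83 in cbp20 cbp80, so only cbp20 cbp80 stood apart, higher. Its second probe read -6.08, -5.84 and -5.34 in WT, -5.98, -5.78 and -6.21 in se-2, and -6.91, -7.03 and -7.42 in cbp20 cbp80, so the same genotype stood apart, lower. Against WT the log2 difference of the brightest probe in cbp20 cbp80 was 1.28 ± 0.30 (limma adjusted p = 0.00999), whereas the second was at least 1.25-fold lower (adjusted p = 0.00279). Between the mutants the brightest probe gave -1.26 ± 0.26 (adjusted p = 0.0117) and the second exceeded cbp20 cbp80 by at least 1.06-fold in se-2 (adjusted p = 0.0043). AT5TU068680, named after its values were seen, also had opposite calls between the mutants. Its brightest probe gave -0.68 ± 0.19 (limma adjusted p = 0.0341). Its second probe, detected on no cbp20 cbp80 array, gave 1.43 ± 0.21 (adjusted p = 0.00389). The second probes of both units passed the detection filter through se-2 alone, so their differences between the mutants are not independent of it.

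Some units lay close enough to overlap. Of 925 neighbouring pairs, 8 had starts 36 to 264 bases apart, less than the shortest length known, and all 8 had consecutive unit numbers. In 3 of these pairs 1 unit was detected on all 9 arrays, and in none were both. Without the strand, it cannot be said whether such units share a strand. AT5TU079790 and AT5TU079800 (chromosome 5, starts 23131489 and 23131525) were the 1 pair in which both were tested. AT5TU079790 had levels of -3.78, -3.61 and -4.11 in WT, -5.07, -5.13 and -4.59 in se-2, and -4.38, -4.36 and -4.12 in cbp20 cbp80. The se-2 arrays lay below all others and were 2.13-fold lower than WT (log2 -1.09 ± 0.21, limma adjusted p = 0.00376, 0.644 with the slide as a block). Its neighbour AT5TU079800 had levels of -6.58, -6.15 and -5.15 in WT, -6.59, -6.67 and -6.32 in se-2, and -6.99, -6.03 and -7.74 in cbp20 cbp80, with all genotypes overlapping. It was called in no comparison (adjusted p = 0.381 in se-2 and 0.146 in cbp20 cbp80). In 2 other pairs, AT2TU009760 with AT2TU009770 (38 bases apart) and AT1TU045400 with AT1TU045410 (79 bases apart), 1 unit was detected on 9 arrays and its neighbour on 3 and on 1.

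Among the 71 units detected everywhere, the smallest differences from WT were those of AT2TU001240, AT1TU070650 and AT5TU038120. AT2TU001240 had levels of -3.06, -1.99 and -2.57 in WT, -2.55, -2.47 and -2.52 in se-2, and -2.46, -2.53 and -2.51 in cbp20 cbp80. The 6 mutant arrays lay inside the WT range. Its log2 difference was 0.02 ± 0.25 in se-2 and 0.04 ± 0.25 in cbp20 cbp80, and its second probe gave -0.54 and -0.25 (limma adjusted p = 0.0796 and 0.4). AT1TU070650 gave -0.06 ± 0.36 and 0.02 ± 0.36, and without WT replicate 3 it gave -0.53 and -0.44 and passed the test in both. AT5TU038120 gave -0.02 ± 0.24 and -0.11 ± 0.24. With standard errors of this size, a small difference from WT was not detectable in these units.

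Few calls held under every scaling. In se-2 against WT, 3 of the 23 higher and 3 of the 32 lower units were called in the same direction under all 6 other scalings, and in cbp20 cbp80 3 of 57 and 4 of 18 were. An opposite sign in at least 1 scaling was found for 17 of the 23 and 10 of the 32 units in se-2, and for 40 of the 57 and 0 of the 18 in cbp20 cbp80. The stable units in se-2 were AT5TU056720, AT4TU005600 and AT4TU039550, higher, and AT4TU028510, AT2TU015300 and AT4TU020890, lower. In cbp20 cbp80 the list held these 6 and AT2TU063220, lower. AT4TU020890, outside the rule for named units, ranged from -3.48 to -3.05 on WT arrays and from -4.77 to -4.48 on the mutant arrays. It was called at log2 -1.40 and -1.33 (limma adjusted p = 0.000258 and 0.000395), which became 0.148 and 0.19 with slides as a block. AT2TU063220, chosen likewise, ranged from -3.52 to -3.33 on WT arrays and from -5.13 to -4.62 on the mutant arrays. AT5TU056720 alone passed the scalings and the slide block together, though the block cannot part slide from genotype.

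**Figure D5:**
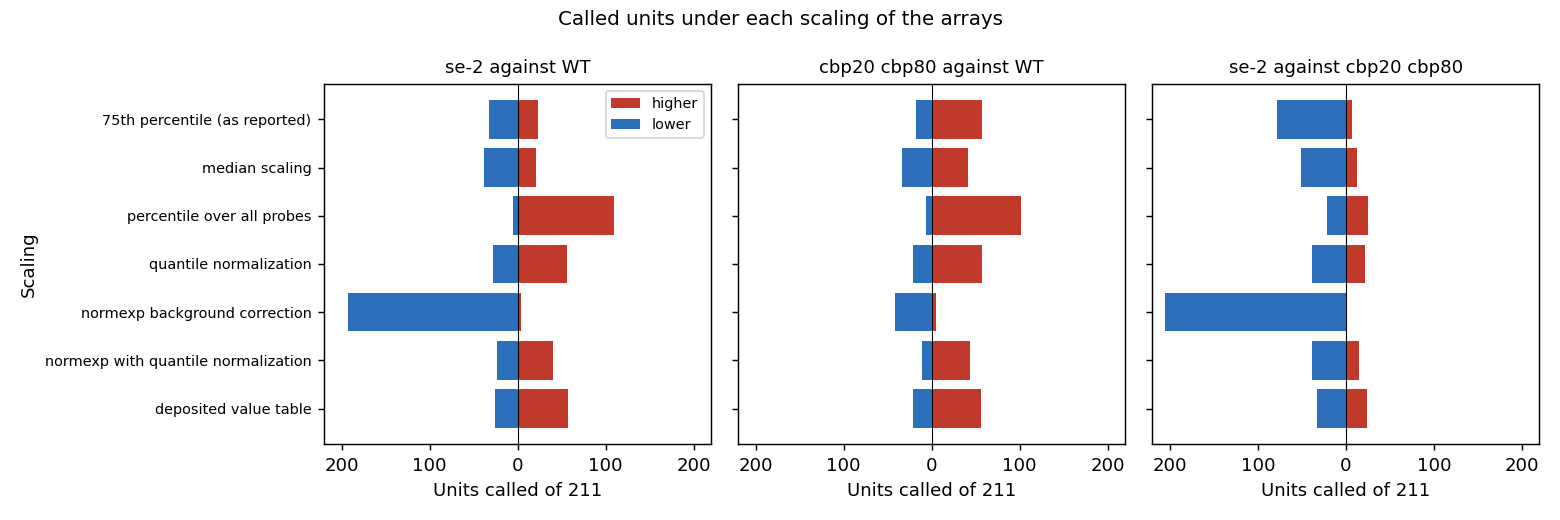
Number of the 211 units called higher (red, right) or lower (blue, left) under each of 7 scalings (vertical axis), in 3 panels for se-2 against WT, cbp20 cbp80 against WT and se-2 against cbp20 cbp80. In the first panel the split goes from 23 higher and 32 lower as reported to 109 and 5 with the percentile over all probes and to 4 and 193 with normexp background correction.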

How the data were processed

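Total RNA of 9 seedling samples was labelled with Cy3 and hybridised to 1 array each, per the labels' protocols. The deposited intensity of each spot had its background subtracted and was not normalized between arrays, per the file headers. These name Agilent Feature Extraction, version 10.5.1.1 on 2 WT arrays and 10.7.3.1 on the other 7. The authors' deposited value table holds log2 values with column medians of 0.322 to 0.323. Its scale was read from the values, its centring and normalization are not given in the sources used here, and it served as an alternative.

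Control spots and outlier spots (0 to 39 per array) were left out, and no spot was saturated. The processed signal was taken to log2 and scaled to the array's 75th percentile over the 1835 probes detected (well above background) on all 9 arrays. Tests covered the 3103 probes detected on every array of a genotype, with 0.0824% of values missing. limma 3.58.1 (lmFit, eBayes) in R 4.3.3 fitted a mean per genotype over 9 arrays, or over the 6 mutant arrays for the mutants, with two-sided Benjamini-Hochberg adjustment over all tested probes at 0.05. The slide entered as a random block (consensus correlation 0.948) as an alternative. The number of arrays limits the precision, and p-values set each difference against the spread between these samples.

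Named units were the 5 largest rises and falls per mutant and 4 per direction between mutants, among called units without overlap and with slide-block calls first, then units detected in mutants or WT alone, overlapping pairs and the smallest changes. The part of that rule on longest and shortest units could not be applied, as the names are cut. Pairs were taken as overlapping where the starts lay under 297 bases apart. Normexp (offset 50) used the median in place of the mean signal, which the files analysed here do not hold. The units and lists were chosen with earlier results of these data known. No sequences are printed, since no genome or sequence table was used here.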

Additional observations from a re-analysis of the deposited data

How the results depend on the processing

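The counts of called units depended on scaling, filter and arrays. In se-2 against WT the 55 calls became 114 when the percentile was taken over all probes (109 higher, 5 lower), 84 with quantile normalization (56 and 28), 197 with normexp (4 and 193), 83 with the deposited value table (57 and 26), 63 with normexp and quantile normalization (40 and 23), 59 with median scaling (21 and 38), 430 of 930 with no filter on dim probes (29 and 401), 29 of 71 with a stricter filter (8 and 21), 18 with array weights, 31 with only the 6 arrays compared, and 1 with the slide as a random block. Leaving out 1 array gave 30 to 89. In cbp20 cbp80 against WT the 75 calls became 47 with normexp (5 and 42), 108 with that percentile (102 and 6), 75 with median scaling (41 and 34), 134 of 930 with no filter (32 and 102), 22 of 71 with a stricter filter (16 and 6), 26 with array weights, 42 with 6 arrays, and 1 with the slide block. Leaving out 1 array gave 37 to 113. Between the mutants the 85 calls became 46 with that percentile (25 and 21), 64 with median scaling (13 and 51), 60 with quantile normalization (22 and 38), 57 with the deposited value table (24 and 33), 207 with normexp (1 and 206), 53 with normexp and quantile normalization (15 and 38), 327 of 930 with no filter, 48 of 71 with a stricter filter and 6 with all 9 arrays. Leaving out 1 array gave 66 to 91. The cause was not tested. Over the 6 other scalings the median of all transcripts itself moved, from 0.01 to between -0.77 and 0.96 in se-2, from 0.25 to between -0.28 and 0.85 in cbp20 cbp80, and from -0.21 to between -0.47 and 0.14 between the mutants. The medians of the units moved with it, from 0.22 to between -0.82 and 1.17, from 0.52 to between -0.30 and 1.11, and from -0.33 to between -0.52 and 0.03. With no filter the medians were -1.09, -0.5 and -0.56 for the units and -0.87, -0.38 and -0.46 for all transcripts.

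The replicate numbers did not pair the arrays (correlations of deviations -0.0483 to 0.0297). With the replicate number as a block, 53, 67 and 70 units were called.

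The number of units detected in WT went from 79 to 149 on at least 2 of 3 arrays, and to 80 to 134 without 1 array. With the flag for positive and significant signal it was 355 in WT, 439 in se-2 (from 201) and 354 in cbp20 cbp80 (from 151). Of the named units, normexp turned the sign of 15 called differences. In se-2 against WT these were AT5TU046030 (-0.65), AT5TU014740 (-0.65), AT3TU027890 (-0.83), AT5TU049740 (-0.76), AT2TU063330 (-0.79) and AT5TU031240 (-0.75). In cbp20 cbp80 against WT they were AT5TU046030 (-0.11), AT3TU027890 (-0.13), AT3TU037980 (-0.36), AT2TU063330 (-0.22) and AT5TU031240 (-0.20). Between the mutants they were AT3TU009860 (-0.36), AT1TU082500 (-0.27), AT4TU044930 (-0.40) and AT5TU049740 (-0.42). The percentile over all probes turned AT5TU047320 between the mutants (0.05). Of the other comparisons of named units with an alternative, 999 stayed on their side of the threshold (the sign of differences not called was not counted), 151 lost the call and 52 gained one. Shares by length class were not run, since the names do not give the lengths. Signal close to background limits most units.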
